A study of Homo sapiens with 47 samples.

Results

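H3K4me3Q5ser and H3K4me3 were compared by ChIP sequencing in PC3 cells carrying the empty vector, over 19535 genomic regions that the authors had called as H3K4me3Q5ser peaks. The members were all 19535 regions of the deposited count table and the 6 libraries that its labels and the sample labels assign to the empty vector (genotype Empty Vector OE): 3 H3K4me3Q5ser libraries and 3 H3K4me3 libraries, 6 of the 47 samples of the series. The series asks how serotonin on histone H3 acts in prostate cancer cells, and its other lines are PC3 cells that overexpress DDC or SLC6A4. The 6 DDC libraries and the 6 SLC6A4 libraries of the same marks served as further measurements of the same ratio, and 3 empty-vector input libraries (chromatin with no antibody) as background. PC3 is an established line derived from a human prostate cancer, so every group shares that genetic background, and the empty-vector group also carries the overexpression construct without an insert. Each line is 1 derivative of PC3 per construct, and the labels do not say whether the 3 libraries of a group came from separate cultures. P-values therefore measure the spread between these libraries only, which may be technical.

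H3K4me3 is histone H3 trimethylated at lysine 4, a mark of active and poised promoters. H3K4me3Q5ser is the same tail with serotonin joined to the neighbouring glutamine, a bond made by transglutaminase 2 (TGM2), and the doubly modified tail has been described as permissive for transcription. DDC makes serotonin from 5-hydroxytryptophan, and SLC6A4 is the transporter that takes serotonin up into cells. The labels do not say whether the H3K4me3 antibody also reads the doubly modified tail, so the ratio below is a ratio of 2 antibody signals and not of 2 separate pools of histone.

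In the empty-vector RNA libraries, epithelial keratin genes were expressed (KRT8 averaged 950, KRT18 1553 and KRT19 7125 normalised reads per kb of exon, n = 3). The prostate protease gene KLK3 was at 0, and so were the neuroendocrine genes NEUROD1 and INSM1. Among the markers of other cell types, PTPRC, CD3E, CDH5 and ALB were listed at 0, while the endothelial marker PECAM1 was at 28.1 and COL1A1 at 4.58. RNA of DDC (0.09), SLC6A4 (0.04) and TPH1 (0.31) was near 0 in the empty-vector cells, while TGM2 stood at 2376. None of DDC, SLC6A4 and TPH1 had a region within 1000 bp of its start.

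Ratios were measured over whole regions and not over single windows. Windows from promoter regions with some of the highest and lowest ratios are shown first. Each is the central 300 bases of the region on the + strand of GRCh38, 5′ to 3′, with the dinucleotide CG (the CpG site, the same on both strands) in capitals. BAP1 belongs to the promoters with the highest ratio of H3K4me3Q5ser to H3K4me3, and the regions at SPTB, EPHA3 and INSM2 to those with the lowest.
BAP1 chr3:52404728-52405027: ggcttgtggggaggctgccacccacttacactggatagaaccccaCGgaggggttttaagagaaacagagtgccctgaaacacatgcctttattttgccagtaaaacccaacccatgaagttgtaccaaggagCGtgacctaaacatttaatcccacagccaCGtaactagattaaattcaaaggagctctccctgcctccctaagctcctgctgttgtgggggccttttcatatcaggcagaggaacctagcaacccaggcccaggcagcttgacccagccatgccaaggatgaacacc
ENSG00000288779 chr14:64880705-64881004: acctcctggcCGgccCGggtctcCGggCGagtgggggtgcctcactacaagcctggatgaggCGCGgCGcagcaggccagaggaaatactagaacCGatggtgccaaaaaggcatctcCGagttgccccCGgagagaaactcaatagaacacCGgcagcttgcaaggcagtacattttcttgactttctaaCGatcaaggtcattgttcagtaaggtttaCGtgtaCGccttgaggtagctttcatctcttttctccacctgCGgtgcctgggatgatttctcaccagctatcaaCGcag
EPHA3 chr3:89108191-89108490: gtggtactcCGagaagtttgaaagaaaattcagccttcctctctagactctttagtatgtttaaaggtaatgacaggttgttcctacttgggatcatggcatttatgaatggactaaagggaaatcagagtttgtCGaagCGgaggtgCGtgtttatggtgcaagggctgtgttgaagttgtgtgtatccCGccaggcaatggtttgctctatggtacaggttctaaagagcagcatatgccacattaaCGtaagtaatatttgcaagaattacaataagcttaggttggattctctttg
INSM2 chr14:35533727-35534026: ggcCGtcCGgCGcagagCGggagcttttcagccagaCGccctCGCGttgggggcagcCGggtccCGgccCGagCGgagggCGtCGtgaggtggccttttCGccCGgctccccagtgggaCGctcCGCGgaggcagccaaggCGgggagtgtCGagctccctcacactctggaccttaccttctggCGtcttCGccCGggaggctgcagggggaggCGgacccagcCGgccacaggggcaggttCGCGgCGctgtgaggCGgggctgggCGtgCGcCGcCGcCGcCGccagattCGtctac

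The BAP1 window lies in an intron, 5131 bp downstream of the BAP1 start. The second window lies in an exon of ENSG00000288779, a lncRNA gene close to the start of SPTB. The EPHA3 window is intronic, 719 bp downstream of the start, and the INSM2 window is intergenic, 288 bp upstream of the start. With 1 high and 3 low windows shown, single windows do not compare the 2 ends of the ratio. CG is common in such windows: 94.7% of all tested regions hold at least 1 in their central 300 bases, the median is 6, and 33.6% hold 10 or more. The median was 13 in the 495 promoter regions at least 2-fold lower in H3K4me3Q5ser, 10 in promoter regions called lower and 7 in those called higher. In all promoter regions it was 7. Over regions of every location it was 6 in those called higher, 6 in those called lower and 5 in those at least 2-fold lower.

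The H3K4me3Q5ser libraries had 24122654 to 24436783 counts within the regions, against 3429714 to 4343811 in the H3K4me3 libraries and 1503439 to 1833609 in input. The H3K4me3 side therefore set the precision. Libraries of 1 mark differed by little more than counting error: the chi-square per degree of freedom between pairs was 1.01 to 1.07 for H3K4me3Q5ser and 1.02 in each pair for H3K4me3. In 1 H3K4me3Q5ser pair and 2 H3K4me3 pairs the difference did not pass p = 0.05 in that chi-square test over regions, so those libraries cannot be told from repeats of 1 library. Counts are therefore also given with the 3 cell lines as the replicates, each line's libraries summed (3 sums of each mark, line as a block).

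Of 19507 regions with enough counts to test, 6536 (33.5%) were called higher in H3K4me3Q5ser than in H3K4me3 and 6823 (35%) lower, by edgeR's quasi-likelihood test at a Benjamini-Hochberg adjusted p under 0.05. In 6876 regions (35.2%) all 3 H3K4me3Q5ser libraries lay above all 3 H3K4me3 libraries in CPM (counts scaled to a fixed total within the regions, with TMM), and in 7080 (36.3%) all 3 lay below. With the lines as replicates, 6590 regions (33.7% of 19535) were called higher and 7041 (36%) lower, of which 116 (0.594%) and 2561 (13.1%) by at least 2-fold. Both sides are relative to the centre of the regions, since only counts within regions were deposited; scaled by library size alone, with a median log2 ratio of -0.10 against -0.01, the split was 4960 higher and 8135 lower. The log2 ratio had its 5th percentile at -1.31 and its 95th at 0.60, with extremes of -2.49 and 2.93.

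The 2 tails were unlike. Only 135 regions (0.692%) were at least 2-fold higher in H3K4me3Q5ser, whereas 1940 (9.95%) were at least 2-fold lower. The 135 were short, with a median width of 679 bp, and their H3K4me3 counts summed to a median of 15.5 over the 3 libraries. Only 4 of them (2.96%) overlapped an H3K4me3 peak, 68 lay over an exon and 12 at a promoter. Above a mean log2 CPM of 4, where the median standard error of a log2 ratio was 0.06, 1 region was at least 2-fold higher and 285 were at least 2-fold lower, of 11404. Leaving out any 1 H3K4me3Q5ser library brought the 135 down to 76, 79 or 80, and none remained when every library had to hold 50 counts. The lower tail then held 1072.

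The ratio followed region width. In quintile 1, the narrowest regions (154 to 1041 bp), the median log2 ratio was -0.51, and in quintile 5, the widest (8760 bp and above), it was 0.28, with -0.40, -0.11 and 0.12 in quintiles 2, 3 and 4. The share called higher in H3K4me3Q5ser was 5.72%, 9.93%, 24%, 49.9% and 77.8% from the narrowest to the widest quintile, and the share at least 2-fold lower was 29.3%, 17.2%, 3.25%, 0.102% and 0%. Per kb of region, H3K4me3Q5ser was at a median of 10.2 CPM in quintile 5 and 5.23 in quintile 1, against 8.47 and 7.21 for H3K4me3. The span between narrow and wide regions was thus larger in H3K4me3Q5ser. Width comes from the H3K4me3Q5ser peak calls, so it is not independent of that mark. A cyclic loess correction removes the trend of the ratio with signal strength. After it, the medians from narrow to wide were -0.24, 0.01, 0.05, 0.02 and 0.11. Quintile 2 no longer lay below 0, and the rise with width was not steady. Across regions the Spearman correlation of ratio and width was 0.51 (n = 19507, all from the same 6 libraries).

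**Figure D1:**
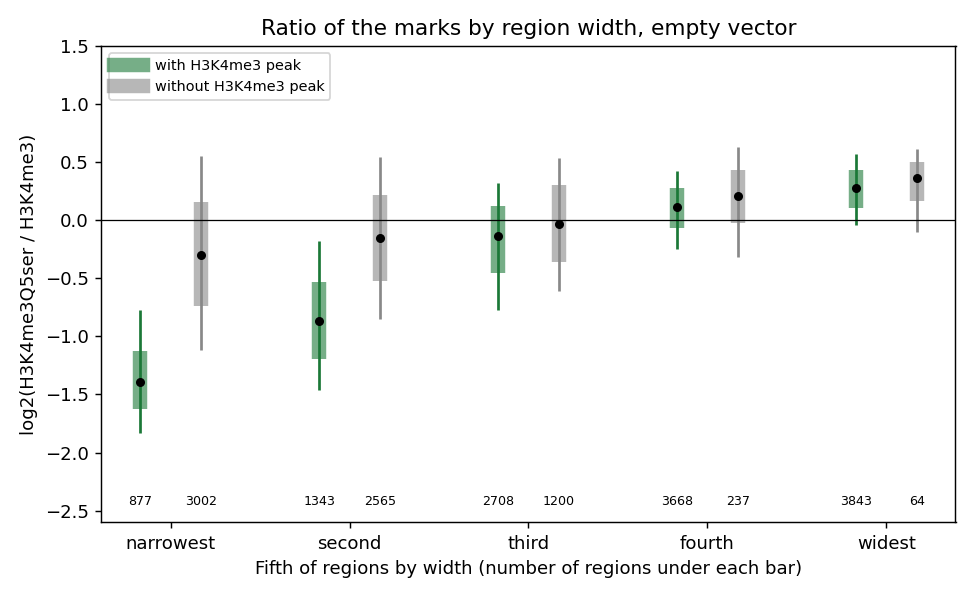
Log2 ratio of H3K4me3Q5ser to H3K4me3 (vertical axis) in 5 width classes of regions, split by whether the region overlaps an H3K4me3 peak; dots are medians, thick bars the middle range from the 25th to the 75th percentile and thin lines the 10th to 90th. The narrowest regions with an H3K4me3 peak sit lowest, at a median of -1.40, and the widest regions with a peak sit at 0.28.

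Of the 1940 regions at least 2-fold lower, 717 were regions of quintile 1 that overlapped an H3K4me3 peak, and 522 were such regions of quintile 2. H3K4me3 peaks are called from H3K4me3 signal, the denominator of the ratio, so overlap and coverage are not independent of it and are given as a description. Within quintile 1 the median log2 ratio was -1.40 in the 877 regions that overlapped an H3K4me3 peak and -0.30 in the 3002 that did not; in quintile 5 the values were 0.28 and 0.36. By the share of a region's length that H3K4me3 peaks covered, the 908 regions covered by 75% or more had a median of -1.41, and 77.3% of them were at least 2-fold lower in H3K4me3Q5ser. Regions covered by less than 25% had a median of 0.20, and those with no peak -0.16. The regions covered by 75% or more had 9.0 CPM per kb in H3K4me3Q5ser and 22.2 in H3K4me3, beside 16.5 in input, where the median of all regions was 8.96. A high input and a low ratio thus occurred in the same regions: the median log2 ratio was 0.13 in the quintile with the least input per kb and -0.40 in the quintile with the most. The part of input in the ratio was not tested apart from 1 alternative. With the input subtracted, 1780 of the 1940 regions (91.8%) were still called lower, but 47 of the 135 (34.8%) were still called higher.

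Location followed width. Promoter regions, those within 1000 bp of an annotated gene start, numbered 11538 with a median log2 ratio of 0.10; 46.9% were called higher in H3K4me3Q5ser and 27.1% lower. Regions over exons away from gene starts had a median of -0.05 (n = 2980), regions in introns -0.38 (n = 2648) and intergenic regions -0.48 (n = 2341). The gene start used was the outermost annotated start of each gene. Of all 19535 regions, 1728 outside the promoter class held the start of another annotated transcript. Those count as exon regions, so the exon class also holds alternative starts and is not gene body alone. Of the intergenic regions 24.4% were at least 2-fold lower, and of the intronic ones 22.9%, against 4.29% of promoters. The order depended on the correction: after cyclic loess the medians were 0.05 at promoters, 0.09 over exons, -0.06 in introns and -0.19 in intergenic regions, and with input subtracted 0.17, -0.17, -1.21 and -1.07. Promoter regions were wider (median 6850 bp, against 1033 bp for intergenic regions), and within quintile 1 the order changed: promoters had a median of -0.72, exons -0.17, introns -0.47 and intergenic regions -0.66. Within quintile 5 promoters were at 0.28, exons at 0.23 and the 25 intergenic regions at -0.13. Promoters thus had the lowest median of the 4 locations in the narrowest quintile and the highest in the widest, where only 4 intronic regions were left.

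At promoters the ratio also followed the RNA level of the gene, taken as the most abundant gene starting at the region. Promoters of genes in the top RNA quartile had a median log2 ratio of 0.25 (n = 4096; 67.5% called higher, 13.1% lower), and promoters with no detected RNA -0.60 (n = 479; 11.3% higher, 66.0% lower). The quartiles between stood at -0.34, 0.00 and 0.11 from low to high RNA. The 2 marks differed in how they carried this. H3K4me3Q5ser was at a median of 9.39 CPM per kb in the top quartile and 5.39 at promoters without RNA, whereas H3K4me3 was at 8.02 and 8.34. Promoters of expressed genes were also wider, with medians of 8668 bp and 2050 bp. Within each width quintile, from narrowest to widest, the medians were -0.48, -0.22, 0.01, 0.20 and 0.35 for the top RNA quartile, against -0.97, -0.82, -0.36, 0.03 and 0.11 (n = 23 in the widest) with no RNA. The top RNA quartile lay above the promoters without RNA at every width. The Spearman correlation over promoters was 0.44 for ratio and RNA and 0.44 for width and RNA (n = 11525 regions of the same libraries).

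**Figure D2:**
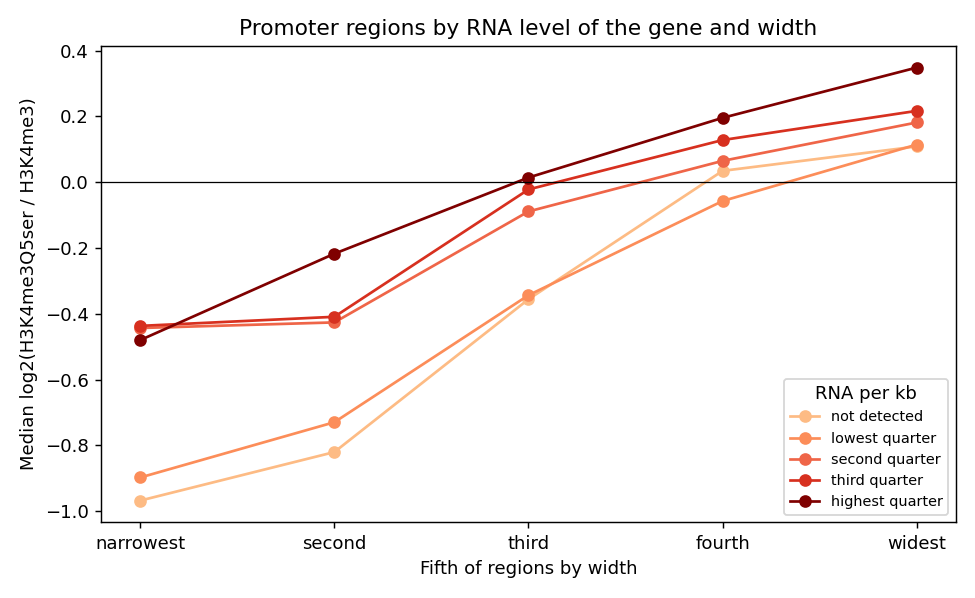
Median log2 ratio of H3K4me3Q5ser to H3K4me3 at promoter regions (vertical axis) by width class (horizontal axis), with 1 line per RNA class of the gene. In every width class the line of the highest RNA quartile lies above the line of promoters without detected RNA, with medians of 0.35 and 0.11 in the widest class.

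These differences were far larger than the spread between libraries. The mean log2 CPM of the widest quintile minus that of the other regions was 3.14, 3.14 and 3.14 in the H3K4me3Q5ser libraries, against 2.66, 2.65 and 2.65 in the H3K4me3 libraries, a gap of 0.48. Wide regions hold more counts in both marks, so the gap between marks is the quantity of interest here. It hardly depends on the scale factor of a library, but it does depend on a correction that varies with signal. Promoters minus other regions gave 2.59, 2.58 and 2.59 in H3K4me3Q5ser, against 2.28, 2.26 and 2.26 in H3K4me3, a gap of 0.33. Promoters of the top RNA quartile minus promoters without RNA gave 2.77, 2.76 and 2.75, against 2.03, 2.03 and 2.02, a gap of 0.73. The quintile of regions richest in CpG for their base composition went the other way, with -0.41, -0.42 and -0.40 in H3K4me3Q5ser, against -0.19, -0.18 and -0.19 in H3K4me3, a gap of -0.22. In none of the 4 did the libraries of the marks overlap, and each exact two-sided permutation p was 0.10, the smallest that 3 against 3 allows. After cyclic loess the gaps were 0.14, 0.09, 0.44 and -0.16, in the order given, and with input subtracted 0.91, 0.83, 1.24 and -0.27.

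**Figure D3:**
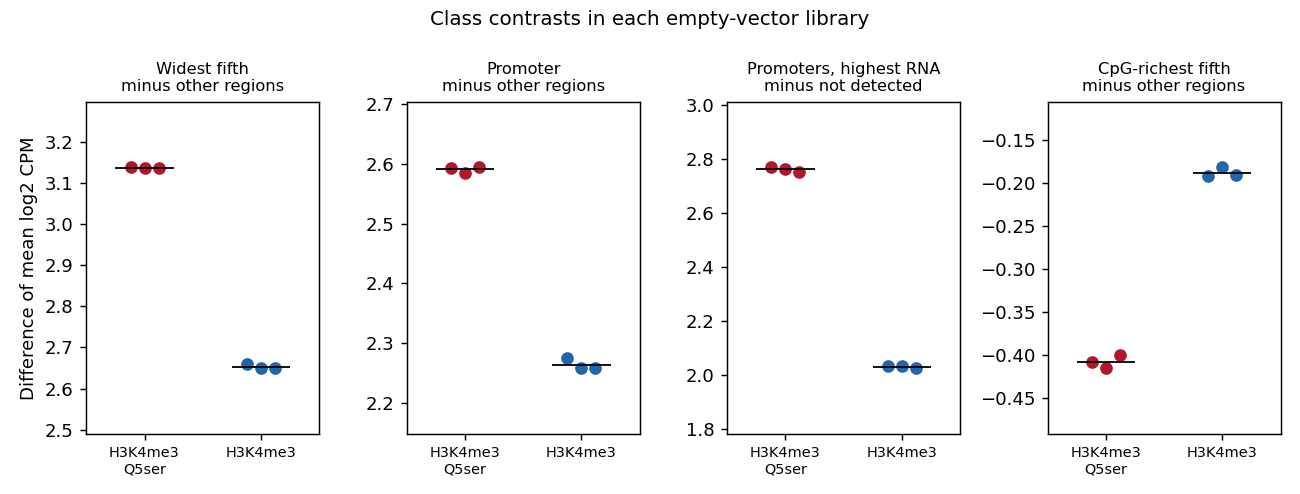
Difference of mean log2 CPM between a class of regions and its comparison class in each library (dots; the line is the mean of 3), for H3K4me3Q5ser and for H3K4me3, in 4 panels with separate vertical axes that do not start at 0. The H3K4me3Q5ser libraries lie above the H3K4me3 libraries in the first 3 panels and below them in the CpG panel.

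The fall with CpG content was not monotonic. By quintile of observed over expected CpG the median log2 ratio was -0.25, 0.09, 0.13, 0.07 and -0.23, so both ends were low, and the rank correlation was -0.02. By GC content the quintile medians were -0.23, 0.05, 0.09, 0.07 and -0.12.

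Among regions with a mean log2 CPM of at least 4, the highest ratios were at regions over BAP1, MRPL28, PET100, NDUFS7, COPE and other genes. The region over the BAP1 promoter (chr3:52399427-52410327), a gene for a nuclear deubiquitinase, had 66.7, 68.2 and 70.9 CPM in H3K4me3Q5ser, against 33.4, 35.6 and 33.3 CPM in H3K4me3. Its log2 ratio was 1.01 ± 0.07 (standard error; adjusted p 1.69e-50 in edgeR, and 2.37e-07 with the lines as replicates). It also reaches the start of PHF7, and its reads cannot be divided between the genes. It was the only region of this depth past 2-fold, so the next ones are given without that floor, a choice made after seeing the values.

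The MRPL28 promoter region (chr16:364325-371290), a gene for a mitochondrial ribosomal protein, had 21.6, 22 and 22.7 CPM in H3K4me3Q5ser, against 11.3, 10.3 and 11.9 CPM in H3K4me3, a log2 ratio of 0.99 ± 0.12. The region over PET100, an assembly factor of cytochrome c oxidase, and its neighbours STXBP2 and XAB2 (chr19:7615987-7643724) had 201, 201 and 202 CPM against 111, 105 and 107 CPM, a log2 ratio of 0.91 ± 0.04. In both regions every H3K4me3Q5ser library lay above every H3K4me3 library.

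NDUFS7, a subunit of respiratory complex I (chr19:1382822-1387806), had 33.1, 35.6 and 32.7 CPM in H3K4me3Q5ser, against 17.2, 18.5 and 18.9 CPM in H3K4me3, a log2 ratio of 0.89 ± 0.09. The region of COPE, a coatomer subunit, and DDX49 (chr19:18913724-18929578) had 129, 134 and 134 CPM against 63.0, 80.2 and 72.1 CPM, a log2 ratio of 0.87 ± 0.05. The other regions among the 10 highest lay over LONP1 and RPL36, over SET, over R3HDM4, at ENSG00000290951 and at BABAM1, with log2 ratios of 0.87 to 0.92. In DDC cells the 10 had log2 ratios of 0.88 to 1.44 and in SLC6A4 cells 0.68 to 1.26, each from libraries that the empty-vector fit did not use. The 5 promoters had 3.36 to 5.93 CPM per kb of input, under the median of all regions, and H3K4me3 peaks covered at most 17.4% of any of them. The log2 ratio to input at these promoters was 0.03 (MRPL28) to 0.64 (COPE) for H3K4me3Q5ser. For H3K4me3 it was below 0 at each, from -0.96 (MRPL28) to -0.23 (COPE). Their leading genes had 41.8 to 1182 normalised RNA reads per kb.

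**Figure D4:**
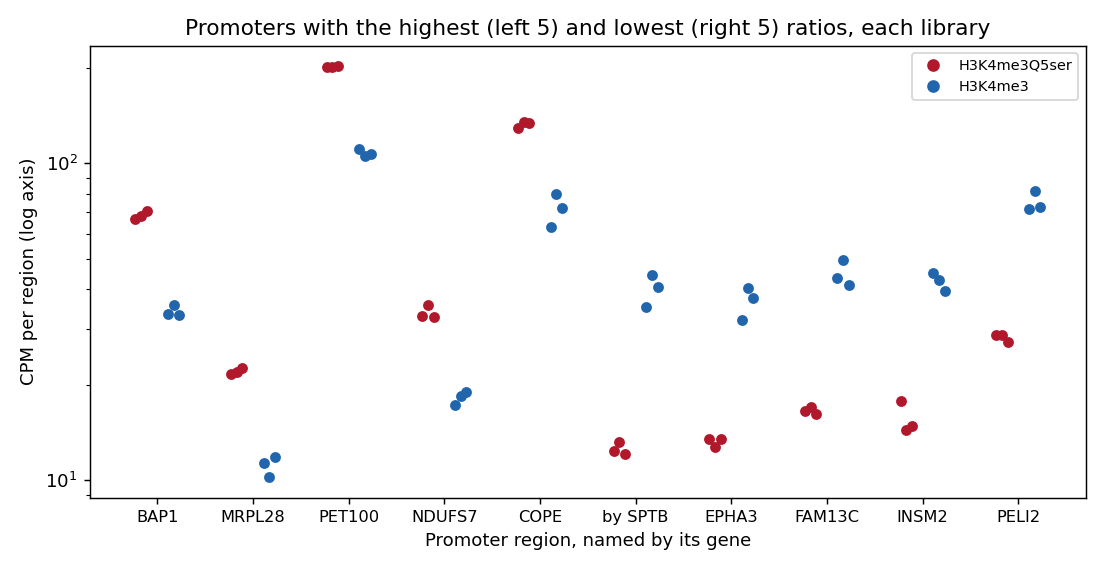
CPM per region in each of the 3 H3K4me3Q5ser and 3 H3K4me3 libraries (log vertical axis) for the 5 protein-coding promoters with the highest ratios and the 5 with the lowest. They were picked among regions with a mean log2 CPM of at least 4 in which the libraries of the marks did not overlap. In the left 5 every H3K4me3Q5ser library lies above every H3K4me3 library, as at BAP1 with 66.7 to 70.9 against 33.3 to 35.6 CPM, and in the right 5 every one lies below; the region named by SPTB lies over ENSG00000288779, close to the SPTB start.

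The lowest ratios of this depth were at short regions away from promoters. An exonic region of PAPLN (chr14:73238844-73239702) had 9.30, 9.43 and 11.8 CPM in H3K4me3Q5ser, against 59.9, 58.4 and 54.3 CPM in H3K4me3, a log2 ratio of -2.49 ± 0.08. An intronic region of RTKN2 (chr10:62243552-62244390) had 14.4, 13.9 and 13 CPM against 60.8, 56.4 and 59.3 CPM, a log2 ratio of -2.09 ± 0.08. An exonic region of SUCO (chr1:172589017-172589401) had 10.9, 11.3 and 11.2 CPM against 45.8, 43.2 and 45.2 CPM, a log2 ratio of -2.0 ± 0.09. All 10 lowest regions were 385 to 1533 bp wide, 91.7% to 99.9% of their length was covered by H3K4me3 peaks, and they had 20.7 to 93.4 CPM per kb of input. At PAPLN the log2 ratio to input was -2.19 for H3K4me3Q5ser and 0.30 for H3K4me3. Over all tested regions the medians were -0.15 and 0.02. These ratios are scaled within the regions, so they order regions and do not give absolute enrichment. The other 7 lay over RAD51B, MECOM, MYPN and ENSG00000253171 and in 3 intergenic stretches of chromosomes 10, 21 and 3, with log2 ratios of -1.82 to -1.94. Over the 10, DDC cells had -2.07 to -3.0 and SLC6A4 cells -2.07 to -3.17.

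At a mean log2 CPM of at least 4, the protein-coding promoters with the lowest ratios belonged to genes with almost no RNA. The region over the lncRNA gene ENSG00000288779 (chr14:64879958-64881750), within 1000 bp of the start of SPTB, the beta-spectrin gene of red cells, had 12.4, 13.2 and 12.1 CPM in H3K4me3Q5ser, against 35.3, 44.5 and 40.9 CPM in H3K4me3, a log2 ratio of -1.69 ± 0.09. EPHA3, an ephrin receptor (chr3:89107646-89109035), had 13.6, 12.7 and 13.5 CPM against 31.9, 40.5 and 37.7 CPM, a log2 ratio of -1.48 ± 0.09. INSM2, a zinc-finger transcription factor gene (chr14:35532450-35535302), had 17.8, 14.4 and 14.9 CPM against 45.2, 42.8 and 39.5 CPM, a log2 ratio of -1.43 ± 0.08. FAM13C was at -1.44 and PELI2 at -1.42. RNA of the 5 leading genes was between 0 and 0.73 normalised reads per kb. Their input stood at 13.2 to 23 CPM per kb, above the median of all regions, and at the ENSG00000288779 region the log2 ratio to input was -1.62 for H3K4me3Q5ser and 0.07 for H3K4me3.

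The 5 widest regions all had higher H3K4me3Q5ser. The widest, 119521 bp over EEF1G, MTA2 and their neighbours (chr11:62568130-62687650), had 1085, 1087 and 1090 CPM in H3K4me3Q5ser, against 723, 676 and 677 CPM in H3K4me3, a log2 ratio of 0.66 ± 0.01. The region over LSM2 and the heat-shock gene HSPA1A was at 0.51, that over VPS28 at 0.53 and that over RPS27 at 0.49. The HOXA cluster, a group of homeobox genes that pattern the body axis (chr7:27143874-27209425), had 1147, 1135 and 1156 CPM against 930, 906 and 926 CPM, a log2 ratio of 0.32 ± 0.01, with 60.0% of its length under H3K4me3 peaks. It had the lowest ratio of the 5.

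Gene lists were read through the promoter region of each member. Of all 12129 protein-coding genes with a region, 57.8% were called higher in H3K4me3Q5ser and 20.1% lower, with a median log2 ratio of 0.18, which is the level to set each list against. Genes of constitutive cell functions lay above it. Among cytosolic ribosomal protein genes, which encode the protein part of the ribosome, 53 of 54 were called higher and 0 lower, with a median of 0.52. RPL7A had 175, 175 and 172 CPM in H3K4me3Q5ser, against 99.2, 99.3 and 94.0 CPM in H3K4me3 (log2 ratio 0.84), while RPL38 had 161, 163 and 162 against 145, 158 and 158 (0.07, not called). Nuclear genes of the respiratory chain had 45 of 46 higher and 1 lower (NDUFV2, -0.06), with a median of 0.49. Proteasome subunit genes, which encode the main protein-degrading complex, had 28 of 29 higher and a median of 0.47. Their exception was PSMA1, with 7.0, 6.6 and 6.5 CPM against 15.5, 18 and 14.4 CPM (-1.25) in a region of 2365 bp. The regions of these 3 lists were wide, with medians of 11304 to 12626 bp against 8063 bp for all protein-coding genes. Their median RNA was 1294 to 2607 normalised reads per kb against 9.02.

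**Figure D5:**
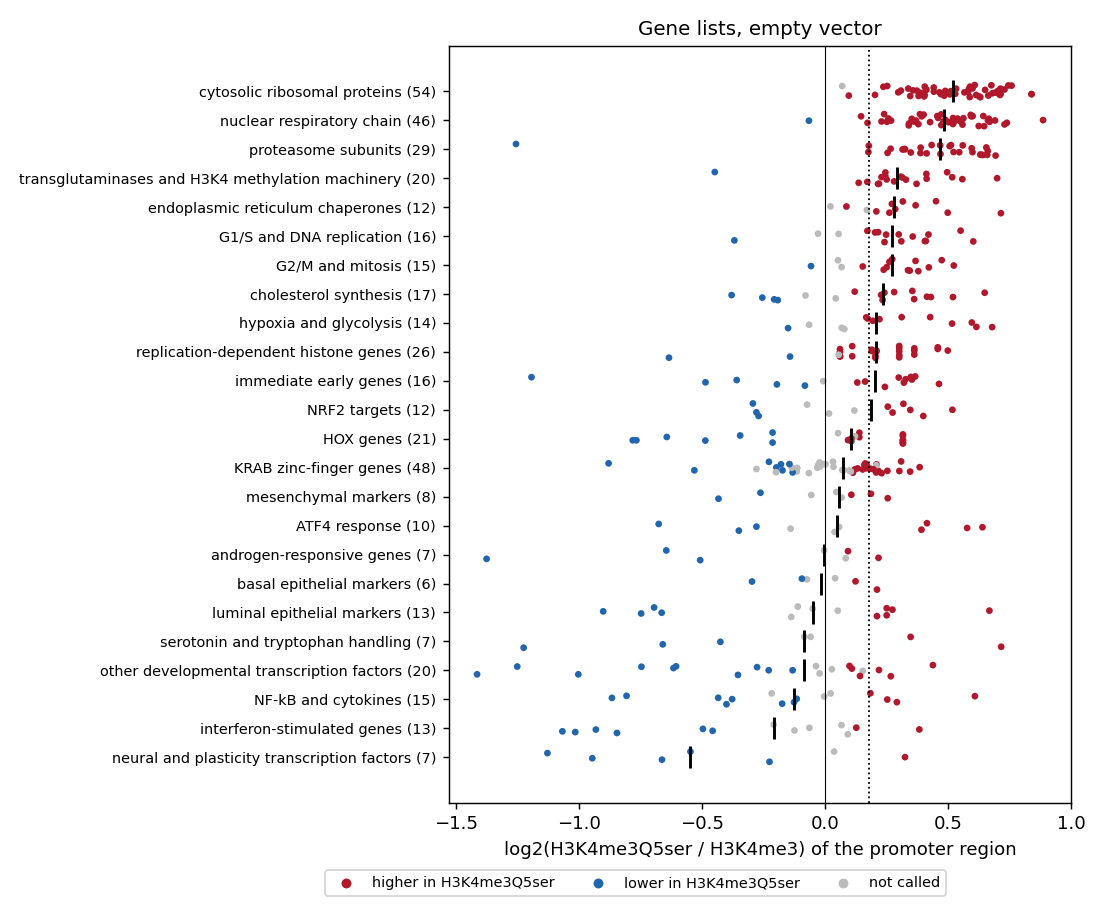
Log2 ratio of H3K4me3Q5ser to H3K4me3 at the promoter region of each gene (dots) in gene lists with at least 6 members with a region, whose number is in brackets; black bars are list medians and the dotted line is the median of all protein-coding genes, 0.18. Ribosomal, respiratory chain and proteasome genes lie almost wholly to the right of 0, and the neural transcription factors have the lowest median, -0.55.

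Of the transglutaminase and H3K4 methylation genes, 19 of 20 were called higher, with a median of 0.29. After cyclic loess these values were 11 of 20 and 0.15, where all protein-coding genes had 0.09. The genes called higher included the H3K4 methyltransferase SETD1A (0.70) and the demethylase KDM5C (0.56). TGM2, which encodes the enzyme that joins serotonin to H3, was the exception: it had 45.6, 43.4 and 43.6 CPM in H3K4me3Q5ser, against 62.2, 61.9 and 57.1 CPM in H3K4me3 (log2 ratio -0.45 ± 0.06, adjusted p 7.38e-13 in edgeR). Its region (chr20:38161312-38165881) was covered to 54.5% by H3K4me3 peaks, and its RNA was high, unlike that of the 5 protein-coding promoters named above for the lowest ratios. In DDC cells the ratio at TGM2 was -0.91 and in SLC6A4 cells -0.43.

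Of the lists of growth and stress responses, ER chaperones had 10 of 12 higher and 0 lower (median 0.28, CALR at 0.71), G1/S genes 13 of 16 higher and 1 lower (median 0.27, the lower one being the helicase subunit MCM2 at -0.37) and G2/M genes 12 of 15 higher and 1 lower (median 0.27). Cholesterol synthesis had 11 of 17 higher and 4 lower (median 0.23), hypoxia and glycolysis 10 of 14 higher and 1 lower (median 0.21) and NRF2 targets 6 of 12 higher and 3 lower (median 0.19). Immediate early genes had 10 of 16 higher and 5 lower, with a median of 0.20, but EGR3 was at -1.19 and FOS at -0.48. ATF4 response genes had 4 of 10 higher and 3 lower (median 0.05, and -0.04 with library-size scaling). Replication-dependent histone genes had 23 of 26 higher and 2 lower in 13 shared regions (median 0.21), with H4C3 at -0.63; after cyclic loess 10 were higher and 9 lower, with a median of -0.01. The medians of the other lists of this group were 0.02 to 0.20 after cyclic loess.

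Several other lists had medians below 0. Interferon-stimulated genes had 2 of 13 called higher and 6 lower, with a median of -0.21, which stayed negative under every scaling tried. IFI6, an interferon-induced mitochondrial protein gene, had 20.8, 21.9 and 19.5 CPM in H3K4me3Q5ser, against 49.8, 43.0 and 38.8 CPM in H3K4me3 (-1.07), and IFIT3, an RNA-binding antiviral gene, was at -1.01. ISG15, whose RNA was high at 12047 normalised reads per kb, was at 0.13. NF-kB and cytokine genes had 4 of 15 higher and 8 lower (median -0.13), with the cytokine IL6 at -0.86 and the apoptosis inhibitor BIRC3 at -0.81. Of the neural and plasticity transcription factors, 7 of 18 had a region, 1 was called higher and 5 lower, and the median was -0.55. POU3F2 had 3.0, 2.8 and 3.1 CPM against 6.5, 6.2 and 6.6 CPM (-1.13), and the members without a region included NEUROD1. Regions of the interferon, NF-kB and neural lists had median widths of 4185, 6319 and 4204 bp, against 8063 bp for all protein-coding genes. Their median RNA was 5.00, 22.1 and 0.92 normalised reads per kb in the same order, against 9.02. The part of width and RNA in these list medians was not tested.

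Other developmental transcription factors had a region in 20 of 50 cases, of which 6 were called higher and 10 lower (median -0.08; DLX5 at -1.41 and EVX1 at -1.25). HOX genes had 12 of 21 higher and 7 lower in 12 regions (median 0.11, and -0.05 after cyclic loess). Those in the wide HOXA region were higher, whereas HOXD13 (-0.78) and HOXC6 (-0.77), each in a region of its own, were lower. KRAB zinc-finger genes had 20 of 48 higher and 8 lower (median 0.07, and -0.02 with library-size scaling; after cyclic loess 7 higher and 10 lower).

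Epithelial and prostate genes were mixed. Luminal markers had 5 of 13 higher and 4 lower (median -0.05, and 0.14 after cyclic loess), with the claudin CLDN7 at 0.67 and GRHL2, an epithelial transcription factor, at -0.90. The adhesion gene EPCAM had 26.8, 28.4 and 27.5 CPM in H3K4me3Q5ser, against 49.8, 49.9 and 39.7 CPM in H3K4me3 (-0.75), and the region shared by KRT8 and KRT18 was at 0.25. CDH1, E-cadherin, had 10.2, 8.04 and 8.46 CPM against 8.20, 10.7 and 9.59 CPM (-0.11, not called), with overlapping libraries. Mesenchymal markers had 3 of 8 higher and 2 lower (median 0.06, but -0.04 with library-size scaling and -0.10 after cyclic loess), with VIM at 0.26 and ZEB2 at -0.43. Basal markers had 2 of 6 higher and 2 lower (median -0.02, and 0.01 with input subtracted). The androgen-responsive genes listed had 2 of 7 higher and 3 lower (median 0.00, with STEAP4 at -1.37; after cyclic loess 0 higher and 4 lower with a median of -0.17, -0.10 with library-size scaling and 0.02 with input subtracted), and of the 3 neuroendocrine genes with a region 1 was called higher (ENO2 at 0.62) and 1 lower (DLL3 at -0.92), with a median of -0.06. Of the markers of other cell types 2 of 16 had a region, and COL1A1 was called lower at -0.66.

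Genes of serotonin and tryptophan handling had a region in 7 of 24 cases, with 2 called higher, 3 lower and a median of -0.08. The median width of these regions was 3488 bp, against 8063 bp for all protein-coding genes. SLC3A2, the heavy chain of amino acid transporters, was at 0.72 in a region of 58506 bp, and its light-chain partner SLC7A5 at 0.35. The serotonin receptor gene HTR1D had 4.0, 4.4 and 5.5 CPM in H3K4me3Q5ser, against 8.8, 11.6 and 11.6 CPM in H3K4me3 (-1.22). MAOA, which breaks serotonin down, was at -0.08 and was not called. Of the reference genes, GAPDH was at 0.52 and ACTB at -0.24, in regions of 9515 and 3625 bp.

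The ratios were measured again in the other lines, in libraries that share no sample with the empty-vector fit. The regions and both peak lists are pooled lists not tied to any line. Region choice, width and peak overlap are therefore not independent of the DDC and SLC6A4 libraries. In DDC cells 6913 regions (35.6% of 19420) were called higher in H3K4me3Q5ser and 7266 (37.4%) lower, and in SLC6A4 cells 7412 (38.1% of 19478) and 7805 (40.1%). At least 2-fold higher were 339 (1.75%) in DDC cells and 225 (1.16%) in SLC6A4 cells, and at least 2-fold lower 2579 (13.3%) and 3179 (16.3%). Of the 6536 regions called higher in empty-vector cells, 5688 (87.0%) were called higher in DDC cells and 5749 (88.0%) in SLC6A4 cells; of the 6823 called lower, 6077 (89.1%) and 6193 (90.8%) were called lower. Of the 1940 at least 2-fold lower, 1908 (98.4%) and 1930 (99.5%) were called lower. The 135 at least 2-fold higher held less well, with 76 (56.3%) and 54 (40.0%) called higher. The gaps by width, promoter location, RNA and CpG were 0.57, 0.37, 0.83 and -0.24 in DDC cells and 0.67, 0.53, 0.93 and -0.17 in SLC6A4 cells, all of the same sign as in empty-vector cells. The lines also differ in depth, with 13511040 to 16654117 H3K4me3Q5ser counts in the regions in DDC cells and 19959292 to 24765380 in SLC6A4 cells.

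Relative to input within the regions, 6258 of 19165 regions (32.7%) were called higher in H3K4me3Q5ser and 8542 (44.6%) lower, and 5430 (28.3%) were called higher in H3K4me3 and 5885 (30.7%) lower. At least 2-fold from input were 331 (1.73%) higher and 4442 (23.2%) lower in H3K4me3Q5ser, and 198 (1.03%) higher and 2732 (14.3%) lower in H3K4me3. In the narrowest quintile the median log2 ratio to input was -1.17 for H3K4me3Q5ser and -0.47 for H3K4me3, and in the widest 0.28 and 0.00. Input is scaled to its own counts in the regions, so these values order regions and do not give absolute enrichment.

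Chromosomes differed too. The share of regions at least 2-fold lower was highest on chromosomes 4 (18.4%), 21 (17.1%) and 18 (15.6%) and lowest on chromosomes 16 (2.3%), 19 (2.8%) and 22 (3.64%). The median log2 ratio was 0.25 on chromosome 16 and -0.19 on chromosome 18.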

How the data were processed

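ChIP sequencing of H3K4me3Q5ser, H3K4me3 and input and RNA sequencing of PC3 cells were used as deposited; samples were grouped by the labels. The ChIP table holds estimated counts per region, which the authors made with featureCounts 2.0.3 from read pairs, a pair with several hits giving a fraction to each, per the file headers; 9.78% of its values are not whole, and they were rounded for testing. Its command line set a strand although the regions have none, and it sums over H3K4me3Q5ser peaks only, so totals are not library depths. The RNA tables hold normalised signal, reads per gene divided by DESeq2 size factors by the authors, per the file headers, after alignment with HISAT2 2.1.0 to GRCh38, per the submitters' processing notes. The signal was divided by exon length. The deposited CUT&Tag table holds CPM in a list of H3K4me3 peaks named as not dependent on Q5; no result rests on it, since its peaks overlap regions only where the ChIP peak list has a peak too. Peaks came from MACS2 and ChIP reads were aligned with Bowtie2, per the submitters' processing notes; the versions are not given in the sources used here.

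Regions kept by edgeR's filterByExpr were tested with edgeR 4.0.16 (TMM, quasi-likelihood, Benjamini-Hochberg adjusted p under 0.05), in a script tested on simulated data, with limma 3.58.1 and DESeq2 1.42.0 for alternatives, in R 4.3.3. Class gaps used 1 value per library and an exact permutation test. Genes and locations came from GENCODE 44, overlaps from bedtools 2.31.1. All overlaps counted from 1 bp. Standard errors and intervals cover the libraries given. Named regions were the 10 highest and lowest log2 ratios with separated libraries and at least 4 as mean log2 CPM, 5 each at protein-coding promoters, the 5 widest, fixed genes and the extremes of each list. Sequence windows over untranslated exons are not shown. Some genes and 1 window that these rules pick are not reported here. Members, lists and rules were chosen with earlier results of these data known. Alternatives covered scaling, filters, rounding, input, a replicate block, left-out libraries and the lines as replicates.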

Additional observations from a re-analysis of the deposited data

Results flagged for a closer look

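Each of 8 tests asked whether a gap between the marks differed between another line and the empty vector. In 2 of them the Benjamini-Hochberg adjusted p was under 0.05. Both had an exact permutation p of 0.005 (adjusted p 0.02), from 400 permutations of the line labels within each mark. The gap between promoters and other regions was 0.37 in DDC cells and 0.33 in empty-vector cells, a difference of 0.046 on the log2 scale. In SLC6A4 cells the same gap was 0.53. That difference of 0.20 was larger but did not pass (exact permutation p 0.185, adjusted p 0.25). The gap between promoters of the top RNA quartile and promoters without RNA was 0.93 in SLC6A4 cells and 0.73 in empty-vector cells, a difference of 0.20. The other 6 adjusted p-values, that of the promoter gap in SLC6A4 cells among them, were 0.16 to 0.595. The permutations also carry any shift that both marks share between lines, so these p-values do not rank the differences by size. The lines differ in depth and were counted over the same regions, and the part of depth in these differences was not tested.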

How the results depend on the processing

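The 4 class gaps kept their direction under every alternative run, and the counts of regions called higher or lower in empty-vector cells stayed within 1.5 times. Lower calls outnumbered higher ones (6823 and 6536), but not after cyclic loess (6074 and 6346), at 50 counts in every library (4847 and 4915) or with input subtracted (5149 and 5781). The counts past 2-fold moved more. For at least 2-fold higher and lower, cyclic loess with limma gave 370 and 878, a minimum of 50 counts in every library 0 and 1072, and input subtraction 410 and 3119, against 135 and 1940; leaving out 1 library gave 76 to 182 and 1902 to 1970. Of the 1940, 850 (43.8%) were still 2-fold lower after cyclic loess. With library-size scaling alone, regions at least 2-fold higher were 187 in DDC cells (339 with TMM), 74 in SLC6A4 cells (225) and 155 for H3K4me3Q5ser over input (331). The cause of these moves was not tested, except that fewer regions are tested at 50 counts. Summing the H3K4me3 libraries to 1 sample gave 6503 higher and 6816 lower. Same-numbered libraries did not deviate together (correlations of -0.015, -0.005 and 0.009 over 9088 regions), so the numbers were not read as pairs; with the replicate number as a block, 6503 regions were called higher and 6796 lower, 131 and 1936 of them by at least 2-fold. Of 2430 alternative values for 136 named regions, 2325 kept direction and call, 76 lost the call, 12 gained it and 17 changed sign. Sign changed after cyclic loess at ATF6 (-0.13), PSMB2 (-0.045), ZEB1 (-0.062), KMT2A (-0.051), CD44 (-0.089), DNAJC3 (-0.17), FOXA1 (-0.026), HOXB13 (-0.15), RPL38 (-0.13), REST (-0.16), RPL37 (-0.12), TWIST1 (-0.0081), COX6C (-0.058), CDH1 (0.36) and HMOX1 (0.16), with library-size scaling at ATF6 (-0.0060) and with the lines as replicates at CDK1 (0.011). Depth limits the H3K4me3 side: regions at least 2-fold higher rest on few H3K4me3 counts.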
